A study of Nitraria sibirica with 9 samples.

Results

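Leaves of Nitraria sibirica exposed to a high level of salt were compared with leaves of plants given no added salt. Nitraria sibirica is a shrub of saline soils. The comparison used 6 of the 9 libraries of the series, 3 from plants at 400 mM NaCl and 3 from plants at 0 mM NaCl, chosen by the treatment given in the labels and by no measured value. The other 3 libraries, at 100 mM, entered the statistical fit for its estimate of the spread, and their values stand beside some results. Greenhouse seedlings received NaCl in steps of 50 mM per day, with a staggered start that brought both salt levels to their target on the same day, and the labels give a treatment of 3 days. Salt level and the time spent in rising salt cannot be told apart. Replicates carry numbers, with no word on separate plants, so p-values measure the spread among these samples and that spread may be technical.

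Salt affects a leaf in a pair of ways. It lowers the water potential of the soil solution, so that water is harder to take up, and it brings sodium and chloride into the cells, where they disturb enzymes that need potassium. Salt-tolerant plants are known for moving sodium into the vacuole, for making small organic solutes that balance it in the cytosol, and for enzymes that remove reactive oxygen. Much of this response is set by the levels of messenger RNA, which is what was counted here.

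Expression was counted over 126059 clusters of a transcriptome that, per the series title, was assembled de novo, and the 6 libraries held between 16502576 and 23932857 read counts each. Cluster names come without gene names or protein descriptions in the files used here. The clusters are therefore described by their level, their length and the size and direction of their difference, and the labelled tissue could not be checked against marker genes. No sequence of a cluster is given in the files used here. A gene may be split over several clusters, and near-identical clusters may share reads, so a single cluster is uncertain as a gene. Of all clusters, 7445 had no read in the 6 libraries and 52146 had a read in each of them. The 56832 clusters tested left out 69227 scarce ones, which together held between 0.764% and 1.42% of the reads of a library. In bulk leaf RNA, a change in the make-up of cell types and a change of RNA per cell cannot be told apart.

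Libraries of 1 salt level were not all alike. The authors' FPKM values (a count per kilobase of cluster, scaled to the size of the library) imply a length shorter than the deposited one by a constant number of bases in each library, here called the length offset. Programs that scale in this way usually take it from the mean length of the sequenced fragments. The offset was 243, 250 and 241 bases in replicates 1, 2 and 3 at 0 mM. It was 242, 248 and 249 bases in replicates 1, 2 and 3 at 400 mM. Replicates 1 and 3 at 0 mM and replicate 1 at 400 mM thus formed a set with a shorter offset, and the other 3 libraries a set with a longer one. Each salt level had libraries in both sets, so results could be read within them. Such readings rest on replicate 1 alone at 400 mM in the shorter set and on replicate 2 alone at 0 mM in the longer one.

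The share of reads that lay on different clusters was computed for each pair of libraries scaled to equal totals. It was 15.2% ± 1.02 between libraries at 0 mM (SD over 3 pairs), 17.2% ± 2.02 between libraries at 400 mM (3 pairs) and 21.4% ± 3.13 between the salt levels (9 pairs, which share libraries). The closest pair across salt levels, replicate 2 at 0 mM and replicate 1 at 400 mM, differed by 16.1%, close to the 15.96% between replicates 1 and 2 at 0 mM. The most distant pairs were replicate 3 at 400 mM with replicates 1 and 3 at 0 mM, at 25.6% and 24.3%, and replicate 2 at 400 mM with replicate 1 at 0 mM, at 24.4%. Pairs across salt levels that shared an offset set differed by 19.0% to 21.6% (4 pairs). The lowest of these 4 values was about equal to the highest value within a salt level, 19.0% between replicates 1 and 2 at 400 mM, and the others lay above it.

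**Figure D1:**
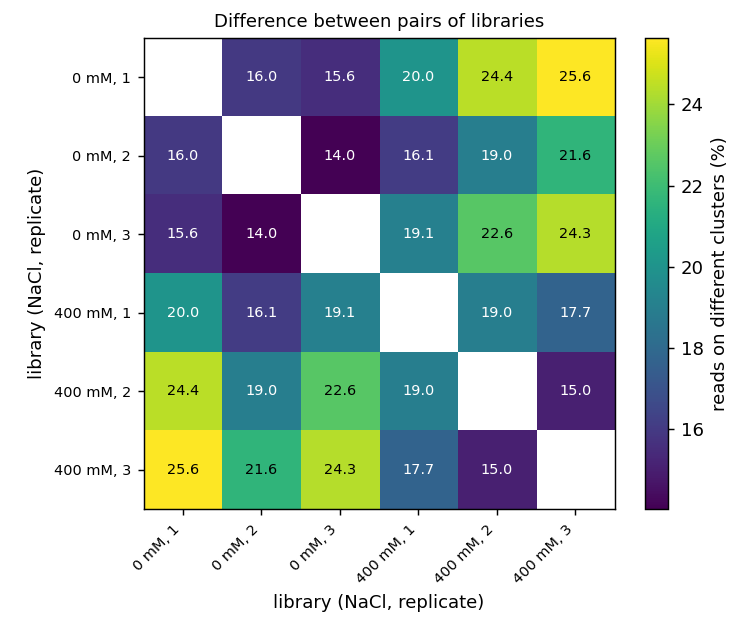
Share of reads lying on different clusters for each pair of the 6 libraries, in percent, with each library scaled to its total count. Pairs within 0 mM run from 14.0% to 15.96%, pairs within 400 mM from 15.0% to 19.0%, and pairs across salt levels from 16.1% to 25.6%.

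No single cluster passed the test at 400 mM after adjustment for the 56832 clusters tested, while differences between the salt levels were spread over many clusters. With edgeR's quasi-likelihood test 0 clusters (0%) had a Benjamini-Hochberg adjusted p under 0.05, and the smallest adjusted p was 0.0942, shared by 6 clusters. At an edgeR adjusted p under 0.2 there were 1009 clusters higher and 283 lower at 400 mM, of the 56832 tested. At an unadjusted p under 0.05 edgeR found 7406 clusters (13% of those tested), 4620 higher (8.13%) and 2786 lower (4.9%). The p-values above this limit were also uneven, with 7.56% of clusters between 0.05 and 0.1 and 3.98% between 0.95 and 1. DESeq2 called 4608 clusters of the 70747 that it gave an adjusted p (6.51%), 2989 higher (4.22%) and 1619 lower (2.29%). Limma on log2(FPKM + 1) of the 31628 clusters in the authors' series table called 99 (0.313%), 65 higher (0.206%) and 34 lower (0.107%). The 3 and 3 libraries did not overlap in 12944 clusters (22.8%), 6548 higher (11.5%) and 6396 lower (11.3%).

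Without replicate 1 at 400 mM edgeR called 120 clusters, 109 higher and 11 lower. The balance of directions turned with the scaling. With TMM scaling, which assumes that most clusters do not change, 62.4% of clusters at an unadjusted edgeR p under 0.05 were higher. Scaling by library size alone shifted the median over all clusters by -0.19 (log2) and gave 3160 higher and 4412 lower, or 41.7% higher. Limma on log2(FPKM + 1) gave, at an unadjusted p under 0.05, 6847 clusters (21.6%), of which 2564 were higher (8.11%) and 4283 lower (13.5%), or 37.4% higher. Whether more clusters were higher or lower is therefore not settled by these data, and directions below are relative to TMM scaling unless another is named.

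Most differences were small. The median fitted log2 fold change over all 56832 clusters was -0.02, the middle 50% of clusters lay between -0.59 and 0.54, and 90% lay between -1.89 and 1.98. Fitted differences of at least 2-fold were about as frequent in both directions, with 7955 clusters higher (14.0%) and 8405 lower (14.8%). At 4-fold or more there were 2787 higher and 2538 lower. Large fitted folds were mostly those of scarce clusters, as 44.2% of clusters under 1 CPM (counts scaled to library size) differed at least 2-fold, against 11.1% of those from 10 to 100 CPM and 13.8% of those over 100 CPM. Of the 1462 clusters over 100 CPM, 174 were at least 2-fold higher at 400 mM and 28 at least 2-fold lower. These classes were set by the mean over the 6 libraries. The abundance difference described below turned to -0.16 when the 0 mM libraries alone set them, so this imbalance may depend on the sorting. Clusters at an unadjusted edgeR p under 0.05 had a median fold of 2.51 when higher and 2.97 when lower. Of these, 332 higher and 272 lower clusters had no count in 1 of the groups, where the fitted fold depends on the fit, and without them the medians were 2.36-fold and 2.73-fold.

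In 4 clusters the libraries at both salt levels stood far apart. They were named by a rule that took the smallest edgeR p in each direction among clusters in the series table with groups that overlapped neither in CPM nor in FPKM. Cluster-23439.55388, of 4058 bases, had 57.1, 63.0 and 84.8 CPM in replicates 1, 2 and 3 at 0 mM and 274, 329 and 321 CPM at 400 mM. Every library at 400 mM lay above every library at 0 mM, with little spread in either group. Its fitted level was 4.51-fold higher at 400 mM, a log2 fold change of 2.17, with a standard error of 0.19 for the difference of the mean log2 CPM and an edgeR adjusted p of 0.0942. On the FPKM scale its mean was 19.6 ± 3.69 in the controls and 77.7 ± 6.91 at 400 mM (SD, n = 3). The 100 mM libraries, set beside the same controls, had 628, 759 and 725 CPM.

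Cluster-23439.23785, of 629 bases, was scarce at 0 mM, with 0.532, 1.16 and 0.983 CPM in replicates 1, 2 and 3. At 400 mM it had 9.57, 14.4 and 20.1 CPM. The groups were far apart, although replicates 1 and 3 at 400 mM were also well apart from each other. Its log2 fold change was 4.03, or 16.3-fold, with a standard error of 0.36 and an edgeR adjusted p of 0.0942. Its FPKM was 2.53 ± 0.886 at 0 mM and 36.6 ± 11.7 at 400 mM (SD, n = 3), and its level was 13.9 CPM ± 1.55 at 100 mM and 14.7 CPM ± 5.25 at 400 mM.

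Cluster-23439.54098, of 2186 bases, had 60.3, 39.7 and 36.3 CPM in replicates 1, 2 and 3 at 0 mM and 8.37, 13.1 and 6.53 CPM at 400 mM. Its lowest control library lay well above its highest library in salt. The log2 fold change was -2.28, or 4.87-fold lower, with a standard error of 0.36 and an edgeR adjusted p of 0.115. Its FPKM was 25.8 ± 8.32 at 0 mM and 4.66 ± 1.82 at 400 mM (SD, n = 3).

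Cluster-23439.55761, of 661 bases, had 61.8, 53.7 and 60.7 CPM in replicates 1, 2 and 3 at 0 mM and 23.95, 13.0 and 14.4 CPM at 400 mM. The controls were close together, and replicate 1 at 400 mM lay nearest to them. The log2 fold change was -1.78, or 3.43-fold lower, with a standard error of 0.27 and an edgeR adjusted p of 0.115. Its FPKM was 155 ± 13.6 at 0 mM and 39.8 ± 14.7 at 400 mM (SD, n = 3). Cluster-23439.54098 and Cluster-23439.55761 stood at 9.50 CPM ± 1.05 and 14.7 CPM ± 1.10 at 100 mM.

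Of 23 other fits, in which the naming rule largely fixes the direction, Cluster-23439.55388 had an adjusted p under 0.05 in 9, Cluster-23439.23785 in 8, Cluster-23439.54098 in 4 and Cluster-23439.55761 in 5. Over these fits the adjusted p ran from 6.8e-29 to 0.204 for Cluster-23439.55388 and from 2.37e-21 to 0.24 for Cluster-23439.23785. It ran from 2.03e-10 to 0.3 for Cluster-23439.54098 and from 4.27e-10 to 0.326 for Cluster-23439.55761, with DESeq2 giving the lowest value of each. Without replicate 1 at 400 mM, edgeR's adjusted p was 0.0412 for Cluster-23439.55388, Cluster-23439.23785 and Cluster-23439.55761 and 0.0798 for Cluster-23439.54098.

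**Figure D2:**
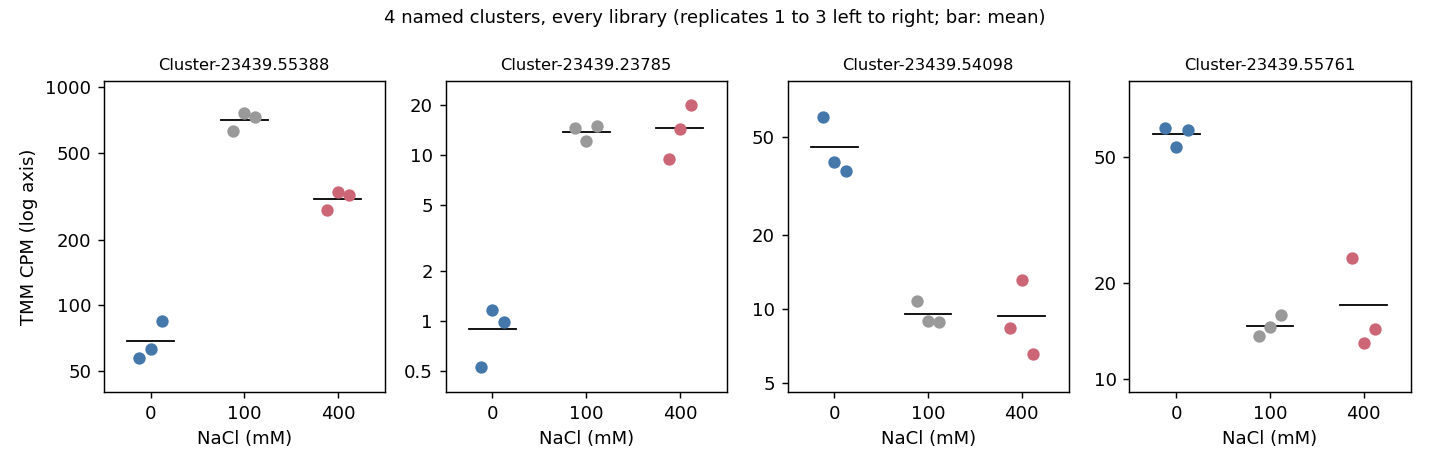
TMM-scaled CPM (log axis) of the 4 named clusters in each library at 0, 100 and 400 mM NaCl, replicates 1 to 3 from left to right, with a bar at the mean. Cluster-23439.55388 runs from 57.1 to 84.8 CPM at 0 mM and from 274 to 329 CPM at 400 mM, and in no panel do the 0 and 400 mM libraries overlap.

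In all, 2183 clusters higher at 400 mM and 1112 lower met the conditions of that rule. Both sets were chosen for their difference, so these values describe them and test nothing. The higher set had a median fold of 2.13 and reached 98.7-fold, with 1204 clusters at 2-fold or more. The lower set had a median fold of 1.86 and reached 32.6-fold, with 458 clusters at 2-fold or more. The higher set was the more abundant, with 282 clusters over 100 CPM against 61 in the lower set. The sets also differed in length. The higher clusters had a median of 1970 bases and 23.7% of them reached 3000 bases, whereas the lower clusters had a median of 1420 bases and 7.91% of them reached 3000. Of all clusters tested with a length, 12.4% reached 3000 bases. Clusters under 1000 bases made up 17.8% of the higher set, 27.9% of the lower set and 27.9% of all clusters tested with a length. Both sets required a mean of at least 5 CPM in the higher group, a limit that all clusters did not have to meet. Short clusters were scarcer, with a median of 1.29 CPM under 500 bases against 14.6 CPM at 3000 bases or more. All clusters are therefore not a background matched for abundance, and which set departs from such a background was not tested.

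Counted over clusters, the direction of the differences went with cluster length. Clusters measured in the same libraries are not replicates, so these shares describe the 6 libraries. Of the values per library given below, the length difference overlapped between the salt levels (exact permutation p = 0.2). The read-weighted mean length did not overlap (exact permutation p = 0.1, the smallest possible). Deposited lengths were known for 30560 of the clusters tested. Among clusters of 3000 bases or more, 794 of 3799 were higher at 400 mM at an unadjusted edgeR p under 0.05 (20.9%) and 104 were lower (2.74%). From 2000 to under 3000 bases, 14.3% of 6220 were higher and 4.44% lower. From 1000 to under 2000 bases the shares were 9.76% and 6.07% of 12012, and from 500 to under 1000 bases 8.84% and 7.08% of 6471. Clusters under 500 bases, 2058 in number, had shares of 8.11% and 4.32%. Over all clusters with a length, 11.8% were higher and 5.42% lower. The median log2 fold change was -0.01, -0.08, 0.00, 0.12 and 0.26 from the shortest to the longest class. The 490 clusters of 5000 bases or more stood furthest from 0, with a median of 0.42, 155 higher (31.6%) and 5 lower (1.02%).

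Under each scaling the median was lowest at 500 to under 1000 bases and highest at 3000 or more, while the sign of some classes turned. Scaled by library size alone, the medians were -0.20, -0.27, -0.19, -0.07 and 0.07, against -0.21 for all clusters tested. On the FPKM scale (log2(FPKM + 0.5)) they were -0.17, -0.24, -0.17, -0.06 and 0.07. Clusters from 2000 to under 3000 bases thus had a median above 0 with TMM and below 0 otherwise, whereas clusters of 3000 bases or more had a median above 0 with each. In each of 10 fits, the one above among them and also DESeq2, limma on log2(FPKM + 1), the replicate block, the length offset as a term and the fit without replicate 1 at 400 mM, clusters of 3000 bases or more had the largest share of higher and the smallest share of lower clusters at an unadjusted p under 0.05. With the length offset as a term in edgeR, a fit added after seeing the data, the shares in this class were 17.8% and 2.40%. Without replicate 1 at 400 mM they were 23.2% and 3.24%.

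**Figure D3:**
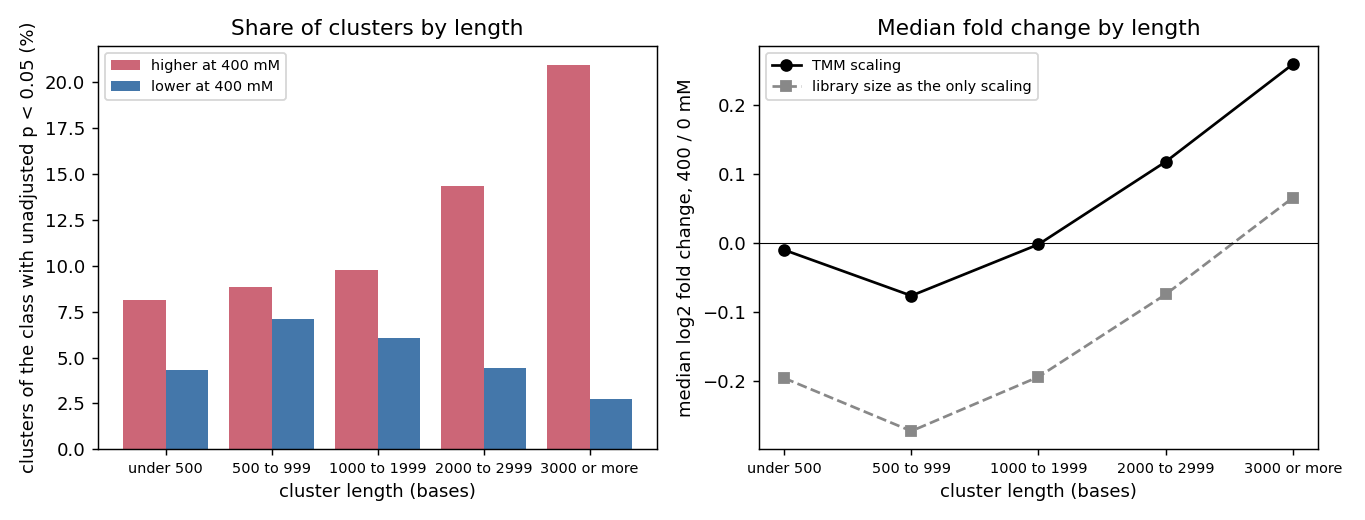
Left, percent of clusters in each length class (bases) with an unadjusted edgeR p under 0.05, higher or lower at 400 mM. Right, median log2 fold change (400 over 0 mM) of each class with TMM and scaled by library size alone. The share higher goes from 8.11% under 500 bases to 20.9% at 3000 bases or more, and both lines are lowest at 500 to under 1000 bases and highest at 3000 or more.

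Longer clusters were also more abundant, with a median of 14.6 CPM at 3000 bases or more and 1.29 CPM under 500 bases, so length was read within classes of abundance. Among clusters of 10 to 100 CPM the median log2 fold change went from -0.01 (189 clusters under 500 bases) and -0.08 (1552 clusters of 500 to under 1000 bases) to 0.05, 0.19 and 0.32 (2131 clusters of 3000 bases or more). In the longest of these classes 26.7% were higher and 2.39% lower at an unadjusted edgeR p under 0.05, and at 500 to under 1000 bases 13.3% were higher and 11.3% lower. Over 100 CPM the medians went from -0.05 (252 clusters of 500 to under 1000 bases) to 0.43 (207 clusters of 3000 bases or more), where 90 clusters were higher and 3 lower. From 1 to 10 CPM the order was weaker. The median was -0.02 under 500 bases, -0.11 at 1000 to under 2000 bases and 0.13 at 3000 bases or more, and by share no order was seen, as 9.31% of that longest class and 9.89% of clusters under 500 bases were higher. Under 1 CPM only 8 clusters with a deposited length reached 2000 bases, so deposited lengths show no order there.

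**Figure D4:**
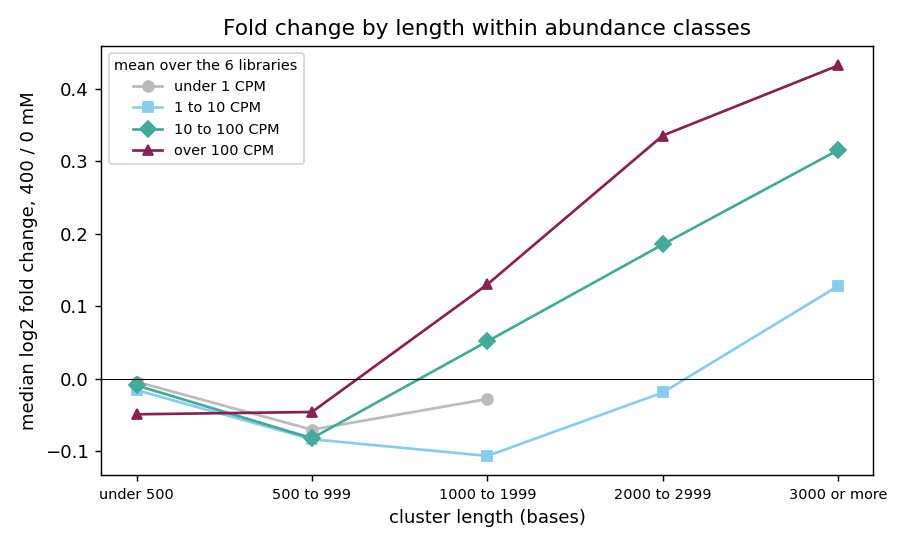
Median log2 fold change (400 over 0 mM, TMM scaling) by cluster length (bases), with a line for each class of mean CPM over the 6 libraries, shown where at least 20 clusters were tested. At 500 to under 1000 bases the 4 lines lie between -0.08 and -0.05, while at 3000 bases or more they lie at 0.13, 0.32 and 0.43 from 1 to 10 CPM, 10 to 100 CPM and over 100 CPM.

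Only clusters whose FPKM exceeds 0.3 in each of the 9 libraries are in the series table, so clusters absent from some library have no deposited length. Their length was computed from count, FPKM and the length offset of each library, which gave a value for 54988 of the clusters tested. In the series table this computed length differed from the deposited one by a median of 0.203 bases. Over these 54988 clusters the median log2 fold change was -0.01, -0.13, -0.08, 0.03 and 0.20 from the shortest to the longest class. Among the 4454 clusters of 3000 bases or more outside the series table, 4.98% were higher and 2.99% lower, and their median was 0.07. At 500 to under 1000 bases, again outside it, 4.36% were higher and 5.89% lower, with a median of -0.35. The largest share of higher clusters outside the series table was in the 594 clusters under 500 bases, 9.26%, against the order by length. Outside the series table the longest class thus again had the highest median, while clusters under 500 bases, with -0.02, came next. By computed length, the clusters under 1 CPM had medians of 0.00 (1351 clusters), -0.22 (4290), -0.26 (7306), -0.26 (3358) and 0.03 (1454 of 3000 bases or more). Their shares of higher clusters were 5.996%, 4.15%, 3.18%, 3.75% and 6.74% from the shortest to the longest class, so that both ends stood above the middle.

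A single value per library that needs no scaling between libraries is the mean cluster length weighted by reads. It was 1839, 1879 and 1818 bases in replicates 1, 2 and 3 at 0 mM and 1900, 1995 and 1949 bases at 400 mM. Every library at 400 mM lay above every library at 0 mM, although replicate 1 at 400 mM and replicate 2 at 0 mM came close to each other. The means were 1845 ± 31.1 and 1948 ± 47.2 bases (SD, n = 3), a difference of 103 bases. Its two-sided p was 0.1 by an exact permutation test, the smallest that 3 libraries against 3 allow. Adjusted over the 3 single values tested in this way, p was 0.15 by the exact permutation test.

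The length offset went in part with this value inside both groups. At 0 mM the library with the longest offset, replicate 2, also had the longest mean, and at 400 mM the library with the shortest offset, replicate 1, had the shortest mean. Replicate 3 at 400 mM had a slightly longer offset than replicate 2 and a shorter mean. Within the libraries of shorter offset, with replicate 1 alone at 400 mM, the difference between the salt levels was 72.0 bases. Within those of longer offset, with replicate 2 alone at 0 mM, it was 92.6 bases. The part of the offset in the difference was not tested. At 100 mM the means were 1869, 1921 and 1912 bases at offsets of 246, 251 and 246 bases. Other measures of RNA or library quality are not given in the files used here.

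**Figure D5:**
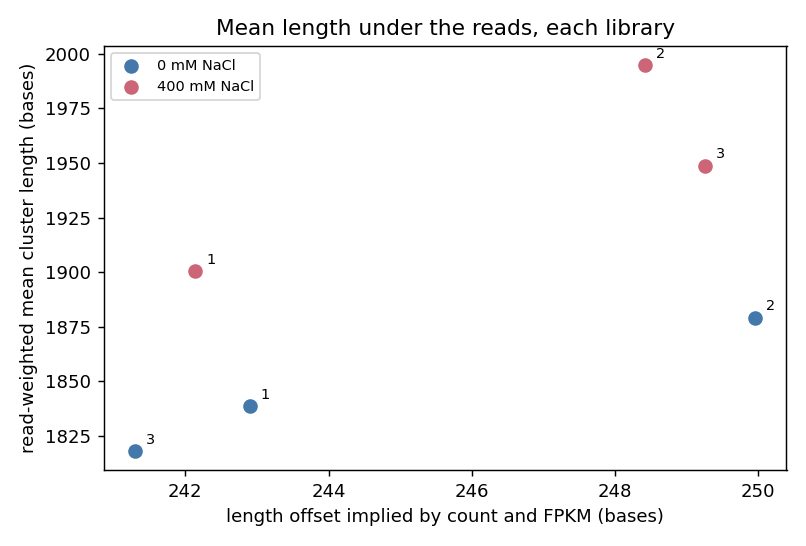
Read-weighted mean cluster length (bases) of each library at 0 and 400 mM NaCl against its length offset (bases), with replicate numbers beside the points. At similar offsets the 400 mM libraries lie above the 0 mM libraries, at 1900 against 1818 and 1839 bases on the left and at 1949 and 1995 against 1879 bases on the right. A single library stands for 400 mM on the left and for 0 mM on the right.

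By class of length, the share of reads was lower at 400 mM in clusters under 2000 bases and higher in longer ones. These shares add up to 100%, so they do not move independently. Clusters of 500 to under 1000 bases held 18.1%, 16.6% and 18.3% of the reads of the series table in replicates 1, 2 and 3 at 0 mM and 16.4%, 14.9% and 15.6% at 400 mM. Clusters of 3000 bases or more held 13.0%, 13.7% and 12.7% at 0 mM and 13.9%, 16.3% and 15.2% at 400 mM. In neither class did the salt levels overlap, with replicate 2 at 0 mM and replicate 1 at 400 mM again the closest libraries. Clusters of 2000 to under 3000 bases went from 19.9% ± 0.476 to 21.7% ± 0.603 (SD, n = 3), and those of 1000 to under 2000 bases from 47.3% ± 0.141 to 45.8% ± 0.888. These 4 classes each had an exact two-sided permutation p of 0.1, or 0.125 adjusted over 5 classes. Clusters under 500 bases went from 2.02% ± 0.212 to 1.71% ± 0.112, with an exact permutation p of 0.2.

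The mean log2 deviation of clusters of 2000 bases or more, minus that of clusters under 1000 bases, was -0.11, -0.01 and -0.13 in replicates 1, 2 and 3 at 0 mM. At 400 mM it was -0.01, 0.16 and 0.11. Replicate 1 at 400 mM lay just below replicate 2 at 0 mM, so the groups overlapped. The difference between the salt levels was 0.17, and the exact permutation test (two-sided) gave p = 0.2. Within the libraries of shorter offset, with replicate 1 alone at 400 mM, it was 0.11. Within those of longer offset, with replicate 2 alone at 0 mM, it was 0.14. Among clusters of 10 to 100 CPM it was 0.24, where the groups did not overlap (exact permutation p = 0.1), and among those of 1 to 10 CPM it was 0.04 (exact permutation p = 0.6).

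Abundant clusters were more often higher at 400 mM than scarce ones, but this order depended on how abundance was set. Sorted by their mean log2 CPM over the 6 libraries, 384 of 1462 clusters over 100 CPM were higher at an unadjusted edgeR p under 0.05 (26.3%) and 68 lower (4.65%). From 10 to 100 CPM 17.4% of 11625 were higher and 5.35% lower, from 1 to 10 CPM 5.93% of 24216 were higher and 5.01% lower, and under 1 CPM 3.95% of 19529 were higher and 4.52% lower. The medians of log2 fold change were 0.19, 0.12, -0.07 and -0.18 in that order. Clusters over 100 CPM, taken by their mean log2 deviation less that mean for clusters under 1 CPM, averaged -0.18 ± 0.11 in the 0 mM libraries and 0.18 ± 0.07 in the 400 mM libraries (SD, n = 3). The difference of 0.35 had p = 0.1 by a two-sided exact permutation test, the smallest possible. It became 0.81 when the 400 mM libraries alone set the classes, 0.63 when the 100 mM libraries did, and -0.16 when the 0 mM libraries did. The direction thus turned with the libraries that sorted the clusters. By reads, clusters over 100 CPM held 47.5% ± 0.383 at 0 mM and 48.3% ± 1.29 at 400 mM (SD, n = 3, exact permutation p = 0.4), and clusters under 1 CPM held 1.62% ± 0.084 and 1.33% ± 0.0758 (exact permutation p = 0.1).

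Between the group means, scaled to library totals, 17.1% of reads lay on other clusters at 400 mM than at 0 mM. Pairs of single libraries within a salt level differed by 15.2% (0 mM) and 17.2% (400 mM) on average. The 17.1% thus also holds spread among libraries. Every cluster with a read counted as a gain or a loss, however small its difference, with 44955 on the side of gain and 73659 on that of loss. These counts thus do not give the number of changed clusters. The 100 clusters with the largest gain held 23.9% of all that was gained and the 100 with the largest loss 25.2% of all that was lost. These 200 clusters were ranked by their difference, so what follows describes them. Of the 100 with the largest gain, 81 had salt levels that did not overlap on this scale, and their median went from 209 to 572 CPM. Of the 100 with the largest loss, 52 did not overlap, and their median went from 738 to 423 CPM. With the same scaling edgeR gave an unadjusted p under 0.05 to 85 of the former and 40 of the latter. Among all 56832 clusters tested, this scaling put 3160 higher and 4412 lower at that limit. The 22.8% without overlap given above was counted with TMM, so the 81 and 52 have no background on their own scale. Ranking by the difference also favours salt levels that do not overlap. Within these 200 clusters, the losses were those of very abundant clusters with smaller folds (median 1.75, against 2.66 for the gains). Libraries overlapped more often in the losses than in the gains. The median length was 1311 bases for the losses against 1650 for the gains.

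Each library was also read in clusters chosen without it, at an unadjusted p under 0.05 in the edgeR fit of the other 8 libraries. The left-out library had no part in the choice, while the libraries of the opposite group did, which by itself favours a difference in the same direction. The values therefore only compare libraries with each other. For 5107 clusters higher and 3274 lower in the fit without replicate 1 at 400 mM, its median log2 difference from the 0 mM mean was 0.54 and -0.54, beside 1.25 and -1.29 in the mean of the other replicates at 400 mM. Replicate 2 at 400 mM, left out in turn, showed 0.95 and -0.78, and replicate 3 showed 1.27 and -0.99. At 0 mM, the difference between the 400 mM mean and the left-out library was smallest for replicate 2, at 0.67 for the higher and -0.72 for the lower clusters. It was 1.14 and -1.01 for replicate 1 and 0.98 and -0.95 for replicate 3. The libraries that showed the smallest differences, replicate 1 at 400 mM and replicate 2 at 0 mM, are the ones whose offset set is that of most libraries of the other salt level. The part of the offset in this result was not tested.

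The clusters called without replicate 1 at 400 mM were also read in all libraries. The libraries that chose these clusters are also in the fit with all libraries, which largely fixes direction, p and overlap there, so such counts only describe. Of the 109 called higher, 106 were also tested with all libraries, all 106 with the same direction and an unadjusted edgeR p under 0.05. In 102 the libraries of both levels did not overlap. Over these 106, the median log2 difference from the 0 mM mean was 2.59 and 2.80 in replicates 2 and 3 at 400 mM, which chose them. It was 1.22 in replicate 1, which had no part in the choice. Of these 106, 97 are in the series table, and the median level was 19.6 CPM. Of the 11 called lower, 7 had an unadjusted edgeR p under 0.05 with all libraries and 9 had levels that did not overlap. Within the groups, the median SD of log2 CPM over clusters was 0.41 at 0 mM and 0.45 at 400 mM, and among clusters over 100 CPM it was 0.19 and 0.25.

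On the FPKM scale the direction was the same as in the counts in 87.1% of the 30560 clusters tested on both. The median log2 difference of these clusters was 0.04 on counts with TMM and -0.12 on FPKM + 1, so that the scales are offset from each other. Of 3595 clusters higher on counts at an unadjusted edgeR p under 0.05, 2356 were higher at an unadjusted limma p under 0.05 on FPKM. Of 1656 lower on counts, 1649 were lower on FPKM. No cluster past this limit on both scales had opposite signs. Both scales rest on the same reads of the same libraries, so their agreement is not independent evidence.

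Some clusters were seen at 1 of the salt levels only. With at least 10 counts in each library of 1 group and none in the other, there were 117 clusters at 400 mM and 88 at 0 mM. These are small parts of the 126059 clusters. After thinning the 6 libraries at random to the depth of the shallowest, there were 92 and 82. Their median computed length was 2206 bases at 400 mM (106 with a length) and 2057 bases at 0 mM (83 with a length), against 1659 bases over the clusters tested. This length went with the limit of 10 counts, as the medians without it, given below, were far shorter. Of the 117 seen at 400 mM, 46 had counts in all 100 mM libraries and 11 in none. Of the 88 seen at 0 mM, 12 had counts in all 100 mM libraries and 14 in none, and most of these 88 were present in part of the 100 mM libraries. With any count at all in place of 10, 777 clusters were seen at 400 mM only and 1539 at 0 mM only, with median lengths of 632 and 539 bases.

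Cluster names hold a number before the point, which is the same in all 4 named clusters and in most others, and clusters with another number were more often lower at 400 mM. Of 1187 tested, 301 had all 400 mM libraries below all 0 mM libraries (25.4%) and 49 above (4.13%), against 10.95% and 11.7% of clusters with the common number. At an unadjusted edgeR p under 0.05, 117 were lower (9.86%) and 26 higher (2.19%), and their median log2 fold change was -0.69. They were nearly all scarce, with 1099 under 1 CPM, where their median was -0.73 and that of clusters with the common number -0.15. Scaled by library size alone, their median was -0.87, against -0.21 for all clusters. Of the 88 with another number from 1 to 10 CPM, 5.68% were lower and 2.27% higher at an unadjusted edgeR p under 0.05. With the common number the shares in this class were 5.01% and 5.94%, so the larger share of lower clusters lay mainly under 1 CPM.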

How the data were processed

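RNA from leaves was sequenced in 9 libraries. The authors deposited, per the file headers, a read count and an FPKM for each cluster in each library. The read counts are estimated counts, as 38.5% to 42.5% of the deposited values in a library are not whole. A deposited series table holds FPKM and length for 31628 clusters, those with an FPKM over 0.3 in all 9 libraries. Per the submitters' processing notes the tools included Bowtie2 2.0.6 and TopHat2 2.0.9, without a role. No source used here gives the assembler, the counter or its strand setting.

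Estimated counts were rounded. The main test was edgeR 4.0.16 (R 4.3.3), glmQLFit and glmQLFTest, with TMM, filterByExpr and salt level as 3 groups over all 9 libraries, leaving 6 residual degrees of freedom. The common biological coefficient of variation was 0.758. Adjusted p-values cover all clusters tested. Limma 3.58.1 (with a trend, on log2 FPKM plus 1 or 0.1) and DESeq2 1.42.0 were alternatives. CPM are TMM-scaled over the clusters tested unless stated. Log2 deviations used a pseudocount of 0.5. Single values per library were compared by exact permutation tests. No pair of libraries held identical counts.

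The comparison, classes and rules were chosen with earlier results of these data known. Named clusters were the 2 with the smallest p in each direction among clusters of the series table with an unadjusted p under 0.05, no overlap in CPM or FPKM and a mean of at least 5 CPM in the higher group. The limit between offset sets, 245 bases, was set after seeing the data.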

Additional observations from a re-analysis of the deposited data

How the results depend on the processing

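Calls by edgeR at an adjusted p under 0.05, 0 with all libraries, ranged from 0 to 120 when 1 library was left out; 120 came without 400 mM replicate 1 and 1 without 100 mM replicate 2. Calls were 35 with the newer adjusted deviances, 8 in the series table alone, 1 with limma-voom and 4608 with DESeq2. Limma on FPKM called 99 (plus 1, series table), 72 (plus 0.1, series table) and 233 (plus 1, all clusters tested). Calls stayed at 0 with DESeq2 size factors, library size alone, both other filters, the 6 libraries alone and the offset as a term, an alternative chosen after seeing the data like the values within offset sets. At an unadjusted p under 0.05, clusters higher were 4620 of 56832 tested (8.13%) and 7355 of 120105 with DESeq2, a smaller share. Of the 31628 clusters in the series table, limma gave 2564 (FPKM plus 1) and 2551 (FPKM plus 0.1) higher. Leaving out 1 library gave 3244 to 5284, with 62300 to 64358 clusters tested. Clusters lower were 2786 of 56832 (4.9%). Of the same 56832, 4412 were lower with library size alone, 4289 with the newer deviances and 6765 with limma (FPKM plus 1). Without a filter 4624 of 121472 were lower, a smaller share than 4.9%, and with DESeq2 6978 of 120105, a larger one. Of the 31628 clusters in the series table, limma (FPKM plus 1) gave 4283 lower (13.5%). Leaving out 1 library gave 1882 to 3571 lower.

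The replicate number as a block gave 83 calls, 82 higher and 1 lower. Deviations of same-numbered libraries at 0 and 400 mM correlated at 0.0436, 0.0283 and 0.0157 over clusters, so the numbers were not taken as pairs. Among these 6 libraries each correlated best with its own number, a hint from the data only, but with the 100 mM libraries included 0 mM replicate 3 correlated at -0.0116 with its own number and 0.0665 with replicate 1, while the replicates 1 at 100 and 400 mM correlated at 0.216, the highest of all pairs. For the single values, the block left the differences at 0.35, 0.17 and 103 bases, with exact sign-flip p of 0.25, the smallest possible.

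The abundance difference turned to -0.16 with classes by the 0 mM libraries, and was 0.81 with classes by the 400 mM libraries, settings that each sort by 1 of the groups compared. Under the other alternatives it lay between 0.22 and 0.63, the length difference between 0.04 and 0.24 and the difference in read-weighted length between 72.0 and 126 bases. With 3 libraries a group these tests cannot pass 0.05, so their p-values say nothing about stability.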
